A study of Mus musculus with 12 samples.

Results

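Calvaria of newborn mice heterozygous for Runx2 (Runx2+/-) and of their WT littermates were compared by RNA-seq across all gene classes, with genes of skeletal muscle described apart from those of bone, osteoclasts and cartilage. The comparison took all 3 Runx2+/- and all 3 WT libraries of this cross, 6 of the 12 libraries of the series, for which the methods give 3 mice per group. The other 6 libraries belong to a second cross, in which Med23 was deleted in mesenchymal stem cells (3 Med23-/- and 3 control mice). All mice are labelled C57BL/6, newborn and calvaria, and the methods name the parietal bone at postnatal day 2. No treatment is given for any group. The Runx2+/- mice came from another laboratory, and neither the deleted part of Runx2 nor the origin of the chromosome that carries the allele is given in the sources used here. Expression is given in FPKM, a fragment count divided by transcript length and by library depth. RefSeq transcripts were added up per gene, and the 12682 of 23715 genes that reached 1 FPKM in 3 or more of the 6 libraries were tested. Log2 fold changes are differences of mean log2(FPKM + 1), which understates the change of genes near 1 FPKM.

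RUNX2 is a runt-domain transcription factor that binds DNA together with CBFB and is required for cells of the mesenchyme to become osteoblasts. In osteoblasts it is known to activate genes of the bone matrix and of its turnover, among them osteocalcin (Bglap), bone sialoprotein (Ibsp) and collagenase 3 (Mmp13). The flat bones of the skull form directly from mesenchyme, and loss of 1 copy of the gene delays the closure of the fontanelles in mice and in patients with cleidocranial dysplasia. Osteoclasts, the bone-resorbing cells, arise from the monocyte lineage and depend on signals from cells of the osteoblast lineage.

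The depth was estimated at 9030000 to 11510000 fragments for the WT and 7860000 to 10020000 fragments for the Runx2+/- libraries. Genes near 1 FPKM rest on few fragments. The defining transcripts of bone were abundant in all 6 libraries, with 3397 to 6691 FPKM of Col1a1 and 50.1 to 74.3 FPKM of Sp7. WT library 1 came from a female, with 42.4 FPKM of Xist, whereas Xist was at most 0.0663 FPKM in the other 5 libraries, so that the Runx2+/- group is male and the WT group mixed. Skeletal muscle RNA also differed between the groups. The summed FPKM of 35 sarcomere genes was, from low to high, 2228, 2289 and 6565 in the WT and 47.9, 200.1 and 239.8 in the Runx2+/- libraries. Blood RNA set 1 library apart. The summed FPKM of 12 erythroid genes was 19309 in Runx2+/- library 2 and 4803 and 9621 in the other Runx2+/- libraries, against 18406 to 21024 in the WT libraries. Whether the sex of WT library 1, muscle or blood had a part in the results below was not tested, and values without WT library 1 are given beside the results.

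Runx2, on chromosome 17 (chr17:44495987-44814797, GRCm38), is the gene that the labels name. It had 29.8, 37.7 and 27.3 FPKM in the WT libraries and 34.3, 30.4 and 35.7 FPKM in those labelled Runx2+/-. Both groups overlapped, and the log2 fold change was 0.09 (95% confidence interval -0.20 to 0.39, adjusted p = 0.794, limma). Summed RNA of the gene thus did not show a loss of 1 copy, and the groups are called by their labels in what follows. FPKM over a gene with a partly deleted allele can hold RNA of both alleles, and the deleted part was not known. The sum therefore cannot check the genotype. Of the 8 deposited Runx2 transcripts, 2 had groups that did not overlap. NM_001146038 was at 4.82, 6.75 and 5.74 FPKM in the WT and at 9.92, 8.83 and 8.39 FPKM in the Runx2+/- libraries. NM_001145920 was at 0.728, 0.709 and 0.728 against 1.64, 1.86 and 3.15 FPKM. Both were higher in every Runx2+/- library. NM_009820 was at 4.89, 7.42 and 4.35 against 4.99, 2.12 and 2.43 FPKM, with overlap. These estimates share reads between transcripts of 1 gene, and no test was run on them. Of all tested genes, 10.8% likewise lay above WT in every Runx2+/- library, so that 2 of 8 transcripts is not read as a result.

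Of the 12682 genes tested, 210 were lower (1.66%) and 60 higher (0.473%) in the Runx2+/- libraries at an adjusted p under 0.05 (limma with Benjamini-Hochberg adjustment). In 1301 genes (10.3%) all 3 Runx2+/- libraries lay below all 3 WT libraries, and in 1371 genes (10.8%) they lay above them. Both kinds of separation were about equally frequent, and the median log2 fold change over all genes was 0.03. Of the 210 lower genes 78 were muscle-associated, which left 132 lower and 60 higher genes outside skeletal muscle. This division follows a rule given with the processing, and the 132 can still hold genes of muscle near its limit, such as Mlf1. With only the muscle lists left out, 166 lower genes remained. No muscle-associated gene was called higher. Without WT library 1, 76 genes were lower and 15 higher, and outside skeletal muscle 26 were lower. Leaving out each of the 6 libraries in turn, 17 of the 132 lower and 12 of the 60 higher genes outside skeletal muscle were called every time. Bulk RNA cannot tell fewer cells of a type from less RNA per cell, which holds for every result below.

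**Figure D1:**
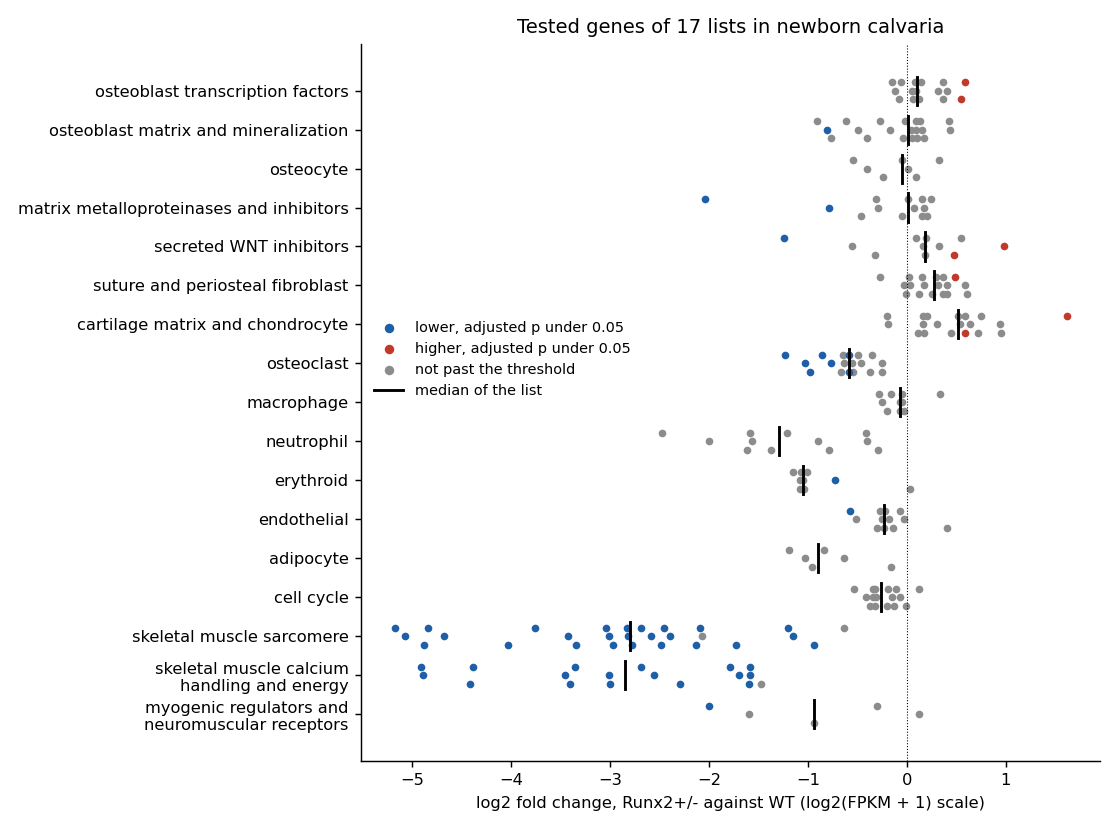
Log2 fold change of every tested gene (points) of 17 gene lists, Runx2+/- against WT, with 3 libraries per group; blue and red points passed an adjusted p of 0.05, and black bars mark the median of each list. The skeletal muscle lists lie far to the left (medians -2.80 and -2.85 for sarcomere and energy genes), the osteoclast genes all lie below 0 (median -0.58), the osteoblast matrix genes scatter around 0 (median 0.01) and the cartilage genes lie mostly above it (median 0.52).

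Genes of the bone matrix gave 1 call. Of 20 tested genes of the osteoblast matrix and of mineralization, 1 was lower and 0 were higher, beside 1.66% and 0.473% of all genes, and the median log2 fold change was 0.01. In 4 genes the Runx2+/- libraries all lay below the WT libraries and in 1 above them. Ibsp, an acidic glycoprotein that binds hydroxyapatite, was the gene that passed. It had 1402, 907 and 1266 FPKM in the WT and 627, 699 and 680.0 FPKM in the Runx2+/- libraries. The groups did not overlap, and the log2 fold change was -0.81 (standard error 0.16, adjusted p = 0.0494, limma). This call was held in 1 of 6 fits that left out a library and was lost without any library but WT 2, with an adjusted p of 0.17 without WT library 1. Spp1 (osteopontin), a phosphoprotein of bone matrix, had 19135, 15059 and 19342 against 9444, 9860 and 12168 FPKM. Its groups did not overlap either, but the log2 fold change of -0.77 did not pass (adjusted p = 0.0704, limma). Fam20c, the kinase of such secreted phosphoproteins, had 27.6, 33.2 and 25.7 against 21.8, 18.8 and 17.7 FPKM and missed the threshold likewise (log2 fold change -0.54, adjusted p = 0.0642, limma).

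The main osteoblast genes overlapped between the groups. Col1a1, the main collagen chain of bone, had 4256, 6691 and 3397 FPKM in the WT and 6365, 5090.2 and 4308 FPKM in the Runx2+/- libraries, a log2 fold change of 0.18 (95% confidence interval -0.41 to 0.77). Alpl, the phosphatase that frees phosphate for mineral, had 138, 179.8 and 134 against 172, 156 and 172 FPKM, with a log2 fold change of 0.15 (-0.13 to 0.44). For Sp7 (osterix), which acts downstream of RUNX2, the values were 54.0, 68.9 and 50.1 against 74.3, 56.6 and 52.6 FPKM, with a log2 fold change of 0.08 (-0.28 to 0.45). Atf4, a transcription factor of mature osteoblasts, differed by 0.05 (-0.17 to 0.28). The intervals allow changes of either sign for all 4 genes. Bglap (osteocalcin) varied most. Its WT libraries had 8161, 8179 and 5197 FPKM, and the Runx2+/- libraries 5199, 9377 and 1995 FPKM, so that both the highest and the lowest value were in the Runx2+/- group. The log2 fold change was -0.61 with an interval from -1.75 to 0.52 (adjusted p = 0.612, limma), which covers a large fall as well as a rise. Reads of Bglap and its copies Bglap2 and Bglap3 can be shared, and the sum of the 3 genes varied alike, with 12200, 12616 and 8664 FPKM in the WT and 8505, 14590 and 3552 FPKM in the Runx2+/- libraries.

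**Figure D2:**
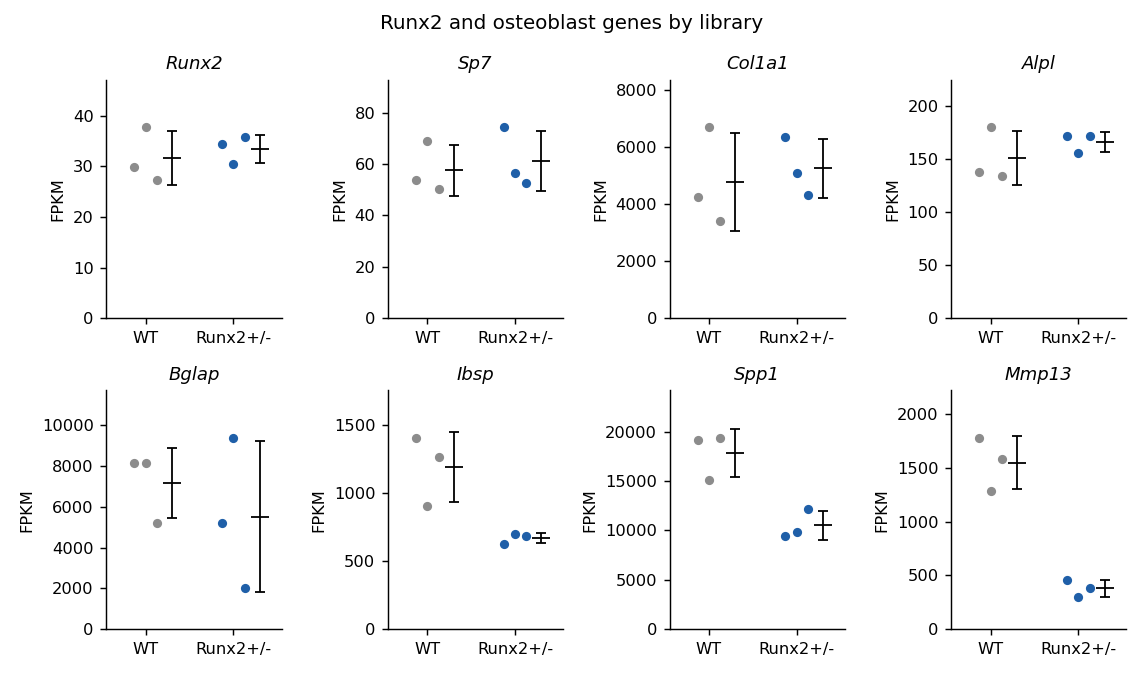
FPKM of Runx2 and 7 osteoblast genes in each library (points) with the mean and SD of 3 libraries beside them, on linear axes from 0. Runx2, Sp7, Col1a1, Alpl and Bglap overlap between WT and Runx2+/- libraries, whereas Ibsp, Spp1 and Mmp13 do not, and Mmp13 is at 24.3% of its WT mean.

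Mmp13 fell most among the genes of the bone lists. This collagenase, made by osteoblasts and hypertrophic chondrocytes, cleaves fibrillar collagen and is a classical target of RUNX2. It had 1777, 1283 and 1585 FPKM in the WT libraries and 453, 295 and 383 FPKM in the Runx2+/- libraries. The highest Runx2+/- library lay far below the lowest WT library, and the log2 fold change was -2.04 (standard error 0.18, adjusted p = 0.00421, limma). The call was held in all 6 fits that left out a library, with an adjusted p of 0.0181 without WT library 1. It was lost when genes of low values were kept in the test. Of 15 tested genes known as RUNX2 targets, Mmp13 and Ibsp were lower and 0 were higher, beside 1.66% and 0.473% of all genes. The median was -0.05. Tnfsf11 (RANKL), the osteoclast differentiation signal of osteoblast lineage cells and also in that list, had 15.6, 12.9 and 16.2 FPKM in the WT and 6.57, 6.74 and 12.9 FPKM in the Runx2+/- libraries. Its log2 fold change of -0.76 did not pass (adjusted p = 0.149, limma). Tnfrsf11b, the decoy receptor of RANKL, overlapped between the groups (log2 fold change -0.22, 95% confidence interval -0.81 to 0.37).

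The promoters of Mmp13 and Bglap hold the core motif of RUNX factors, TGTGGT, in the same orientation, and that of Ibsp does not hold it in the stretch shown. They are shown because all 3 are classical targets and gave different values, with a called fall of Mmp13 and Ibsp and no call for Bglap. They are shown here from RefSeq (GRCm38.p6) for the 150 bases before the start of each gene, with the motif in capitals, which reads ACCACA on the strand of the gene. In Mmp13 (chr9:7272364-7272513, plus strand) it lies 118 to 113 bases before the start, in Bglap (chr3:88384467-88384616, minus strand) 132 to 127 bases before it. The stretch of Ibsp is chr5:104299137-104299286, plus strand.
Mmp13: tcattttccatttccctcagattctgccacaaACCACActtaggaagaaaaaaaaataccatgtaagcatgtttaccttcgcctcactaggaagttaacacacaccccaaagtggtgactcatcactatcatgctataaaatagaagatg
Bglap: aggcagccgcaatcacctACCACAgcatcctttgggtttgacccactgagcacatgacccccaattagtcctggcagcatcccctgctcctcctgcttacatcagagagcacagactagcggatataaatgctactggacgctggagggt
Ibsp: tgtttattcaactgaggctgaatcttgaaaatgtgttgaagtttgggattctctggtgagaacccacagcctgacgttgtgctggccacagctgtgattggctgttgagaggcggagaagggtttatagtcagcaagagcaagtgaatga

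In windows from 250 bases before to 50 bases after the start, TGTGGT or its reverse complement ACCACA was present in 1216 of 9974 tested genes with a window (12.2%). Among lower genes outside skeletal muscle it was present in 18 of 91 (19.8%), among lower muscle-associated genes in 14 of 55 (25.5%) and among higher genes in 6 of 43 (14.0%). Over all 27025 genes of the promoter table the share was 16.9%. A motif of 6 letters occurs often by its letters alone, and a match is not a binding site.

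Among the matrix metalloproteinases and their inhibitors, 13 of 18 genes were tested. Mmp13 and Timp1 were lower and 0 were higher, beside 1.66% and 0.473% of all genes. Timp1, an inhibitor of such proteases, had 711, 566 and 651 FPKM in the WT and 341, 368 and 404 FPKM in the Runx2+/- libraries. The groups were well apart, with a log2 fold change of -0.79 (adjusted p = 0.0177, limma), but the call was lost without WT 1 (adjusted p = 0.0779), WT 3, Runx2+/- 1 or Runx2+/- 2. Mmp14, the membrane-bound protease of osteoblasts and fibroblasts, had a log2 fold change of 0.02 (95% confidence interval -0.23 to 0.26). The median over the 13 genes was 0.02. Mmp9, which osteoclasts make in quantity, had 529, 632 and 492 against 391, 337 and 479 FPKM and did not pass (log2 fold change -0.46, adjusted p = 0.188, limma).

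Transcription factors of the osteoblast lineage gave calls in 1 direction. Of 16 tested genes, 2 were higher and 0 lower, beside a background of 0.473% and 1.66%, and in 7 genes the Runx2+/- libraries all lay above the WT libraries, beside 10.8% of all genes. Twist2, a bHLH factor known to restrain RUNX2 function before osteoblasts mature, had 13.8, 12.3 and 14.0 FPKM in the WT and 22.7, 19.3 and 20.1 FPKM in the Runx2+/- libraries (log2 fold change 0.59, adjusted p = 0.0273, limma). Msx2, a homeobox factor of the sutures, had 9.60, 10.1 and 9.99 against 17.3, 14.4 and 13.4 FPKM (log2 fold change 0.55, adjusted p = 0.0426, limma). Both genes had non-overlapping groups. Each was called in only 1 of 6 fits that left out a library, Twist2 without Runx2+/- 2 and Msx2 without Runx2+/- 3, and without WT library 1 their adjusted p was 0.0903 and 0.164. Twist1, the paralog of Twist2, had 95.7, 97.7 and 111 against 130.3, 126 and 124 FPKM and missed the threshold (log2 fold change 0.32, adjusted p = 0.119, limma). Cbfb, the DNA-binding partner of RUNX2, had a log2 fold change of 0.12 (95% confidence interval -0.06 to 0.31).

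Secreted WNT inhibitors moved in both directions. Of 11 tested genes, 2 were higher and 1 lower, beside 0.473% and 1.66% of all genes, and all 3 belong to the secreted frizzled-related proteins, which bind WNT ligands outside the cell. Sfrp2 (chr3:83765750-83774314) had 247, 241 and 260.3 FPKM in the WT and 472, 475 and 544 FPKM in the Runx2+/- libraries. With 199% of the WT mean, its log2 fold change was 0.99 (standard error 0.09, adjusted p = 0.00562, limma), and the call was held without each of the 6 libraries. Sfrp4 (chr13:19623175-19632825) went the other way, with 205, 151 and 177 against 82.7, 60.9 and 79.8 FPKM. Its log2 fold change was -1.24 (standard error 0.15, adjusted p = 0.0127, limma), again held without each of the 6 libraries. When genes of low values were kept in the test, Sfrp2 was still called and Sfrp4 was not. Sfrp1 had 8.36, 8.70 and 8.53 against 12.6, 11.3 and 12.9 FPKM (log2 fold change 0.48, adjusted p = 0.0369, limma), a call that was lost whichever library was left out, with an adjusted p of 0.157 without WT library 1. Notum, Wif1 and Dkk3 had non-overlapping groups without passing the test. The sclerostin gene Sost, made by osteocytes, had 7.25, 12.4 and 10.4 against 13.01, 16.2 and 9.35 FPKM, with overlap.

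In the list of sutures and periosteum, 1 of 18 tested genes was higher and 0 were lower, beside 0.473% and 1.66% of all genes. The median log2 fold change was 0.28, beside 0.03 over all genes, and 15 of the 18 values were above 0. Prrx1, a homeobox gene of the skeletal mesenchyme and its progenitors, had 96.9, 105 and 91.0 FPKM in the WT and 129.98, 133 and 150.4 FPKM in the Runx2+/- libraries (log2 fold change 0.49, adjusted p = 0.0456, limma). The groups did not overlap, but the call was lost whichever library was left out (adjusted p = 0.174 without WT library 1, limma). Scx, the tendon and ligament factor, had 8.61, 10.5 and 12.8 against 15.6, 17.2 and 16.7 FPKM, and Aspn, a collagen-binding proteoglycan of periosteum, 973, 967 and 873 against 1177, 1448 and 1642 FPKM. Neither passed (adjusted p = 0.0626 and 0.0742, limma). The abundant fibroblast matrix genes Dcn and Postn overlapped, with log2 fold changes of 0.03 (95% confidence interval -0.26 to 0.32) and -0.01 (-0.36 to 0.34). Genes of osteocytes, the cells embedded in bone, gave no call among 7 tested genes, with a median of -0.04. Dmp1, a matrix protein of osteocytes, had 180.3, 224 and 182 against 256, 148 and 178 FPKM.

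Cartilage genes lay mostly above WT. Of 19 tested genes of cartilage matrix and chondrocytes, 2 were higher and 0 lower, beside 0.473% and 1.66% of all genes. In 5 genes the Runx2+/- libraries all lay above WT, beside 10.8% of all genes, and 17 had a log2 fold change above 0, with a median of 0.52. Epyc (epiphycan, chr10:97644068-97681908), a small proteoglycan of cartilage, carried the largest change of the list. It had 7.73, 6.55 and 8.80 FPKM in the WT and 22.8, 25.97 and 28.1 FPKM in the Runx2+/- libraries, 333% of the WT mean. The log2 fold change was 1.62 (standard error 0.12, adjusted p = 0.00222, limma) and the call was held without each of the 6 libraries. Chad (chondroadherin), which binds collagen and integrins, had 17.1, 19.98 and 18.5 against 32.3, 25.3 and 27.6 FPKM (log2 fold change 0.59, adjusted p = 0.0404, limma). This call was held in 1 fit of 6, without Runx2+/- 2, and its adjusted p was 0.16 without WT library 1. Acan, Hapln1 and Cytl1, further matrix and secreted products of chondrocytes, had separate groups and log2 fold changes of 0.52, 0.45 and 0.95 but did not pass (adjusted p = 0.0742, 0.0789 and 0.0712, limma).

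Defining genes of cartilage overlapped between the groups. Col2a1, the main collagen of cartilage, had 6.81, 12.8 and 10.1 FPKM in the WT and 10.3, 31.5 and 14.3 FPKM in the Runx2+/- libraries, and Matn1, a cartilage matrix protein, 0.798, 3.31 and 5.53 against 2.21, 12.5 and 7.34 FPKM. In both genes Runx2+/- library 2 was highest and the groups overlapped. Sox9, the chondrocyte master factor, was at 1.30 to 1.44 against 1.29 to 2.17 FPKM. Col10a1 and Ihh, which mark hypertrophic and prehypertrophic chondrocytes, were below 1 FPKM in all 6 libraries and were not tested. The summed FPKM of the list was 336 to 448 in the WT and 417 to 513 in the Runx2+/- libraries, so that the groups overlapped in the sum.

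**Figure D3:**
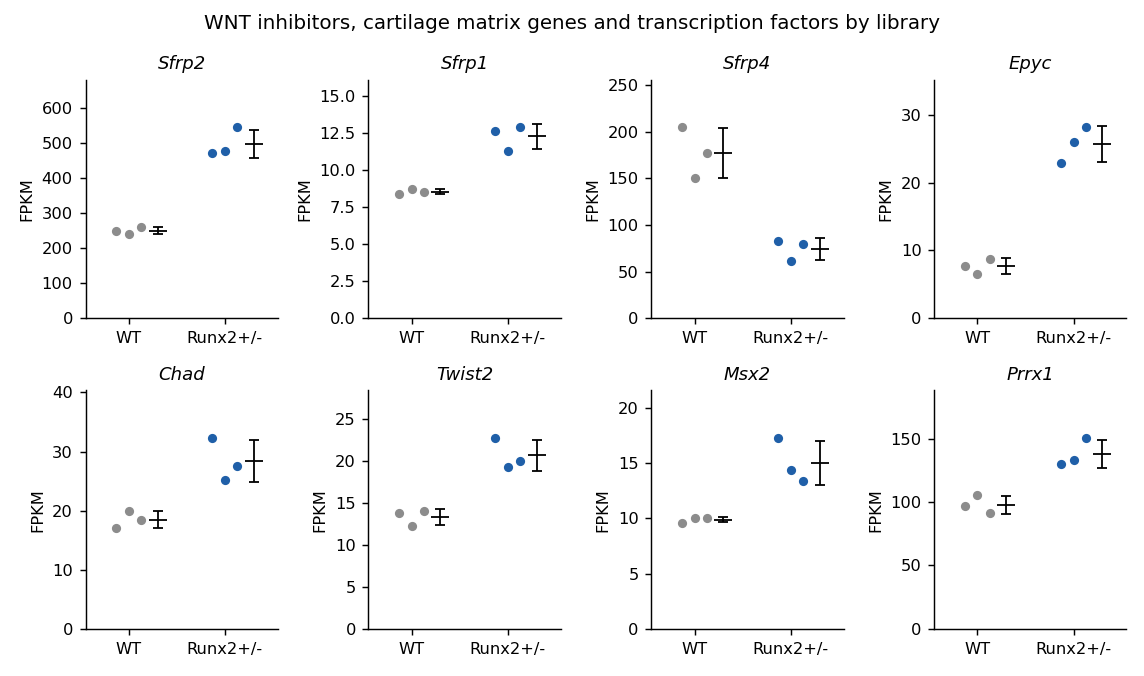
FPKM of 3 secreted frizzled-related proteins, 2 cartilage genes and 3 transcription factors in each library (points) with the mean and SD of 3 libraries beside them, on linear axes from 0. In all 8 genes the Runx2+/- libraries are apart from the WT libraries, below them for Sfrp4 and above them for the others; Sfrp2 is at 199% and Epyc at 333% of the WT mean.

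Nearly all genes of the osteoclast list lay below WT. All 18 genes of the list were tested, 7 were lower and 0 higher, beside 1.66% and 0.473% of all genes. In 17 of the 18 the Runx2+/- libraries all lay below the WT libraries, beside 10.3% of all genes, and the median log2 fold change was -0.58. Without WT library 1, 2 were lower and the median was -0.55. The count was 3 without Runx2+/- 2, 4 without Runx2+/- 1 or WT 3, 5 without WT 2 and 6 without Runx2+/- 3, and it was 2 in a fit of all 12 libraries. When genes of low values were kept in the test, it was 1. The lower genes cover the attachment, fusion and acid secretion of osteoclasts.

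Car2, the carbonic anhydrase that supplies protons for bone resorption, changed most. It had 42.6, 32.8 and 37.6 FPKM in the WT and 15.5, 15.3 and 15.2 FPKM in the Runx2+/- libraries, 40.7% of the WT mean (log2 fold change -1.24, standard error 0.10, adjusted p = 0.00421, limma). Atp6v0d2, an osteoclast subunit of the proton pump, had 114, 97.0 and 108 against 61.4, 51.6 and 62.2 FPKM (log2 fold change -0.85, adjusted p = 0.0132, limma). Both calls were held without each of the 6 libraries. When genes of low values were kept in the test, Car2 was still called and Atp6v0d2 was not. Dcstamp, needed for the fusion of osteoclast precursors, had 36.9, 29.6 and 34.0 against 17.8, 13.6 and 18.2 FPKM (log2 fold change -0.98, adjusted p = 0.0149, limma), and the call was lost only without WT library 1 (adjusted p = 0.0531). Calcr, the calcitonin receptor, had 2.95, 2.46 and 1.99 against 0.704, 0.447 and 0.959 FPKM (log2 fold change -1.03, adjusted p = 0.0267, limma). It passed the filter of 1 FPKM through the WT libraries alone and was not called when the filter was dropped. In none of these 4 genes did the groups overlap, and the Runx2+/- libraries of Car2 were nearly equal.

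The other 3 calls were smaller. Itgb3, the integrin chain that anchors osteoclasts to bone, Tcirg1, a pump subunit of the ruffled border, and Ostm1, the partner of the chloride transporter CLC-7, had log2 fold changes of -0.76, -0.58 and -0.58 (adjusted p = 0.0436, 0.0347 and 0.043, limma). Without WT library 1 their adjusted p was 0.154, 0.142 and 0.168, and that of Calcr was 0.113. Each of the 4 genes was called in 0 to 2 of the fits that left out a library. Ctsk, the collagen-degrading cathepsin of osteoclasts, had 3556, 2720.4 and 3693 FPKM in the WT and 2171, 1916 and 2312 FPKM in the Runx2+/- libraries, and Acp5 (TRAP) 1813, 1629 and 2073 against 1209.5, 1019 and 1291 FPKM. Both had separate groups at 64.2% and 63.8% of the WT mean and missed the threshold (adjusted p = 0.0807 and 0.0563, limma). Nfatc1, the master factor of osteoclasts, was the gene of the list whose groups overlapped, with 25.4, 26.7 and 21.4 against 21.8, 17.1 and 22.5 FPKM.

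**Figure D4:**
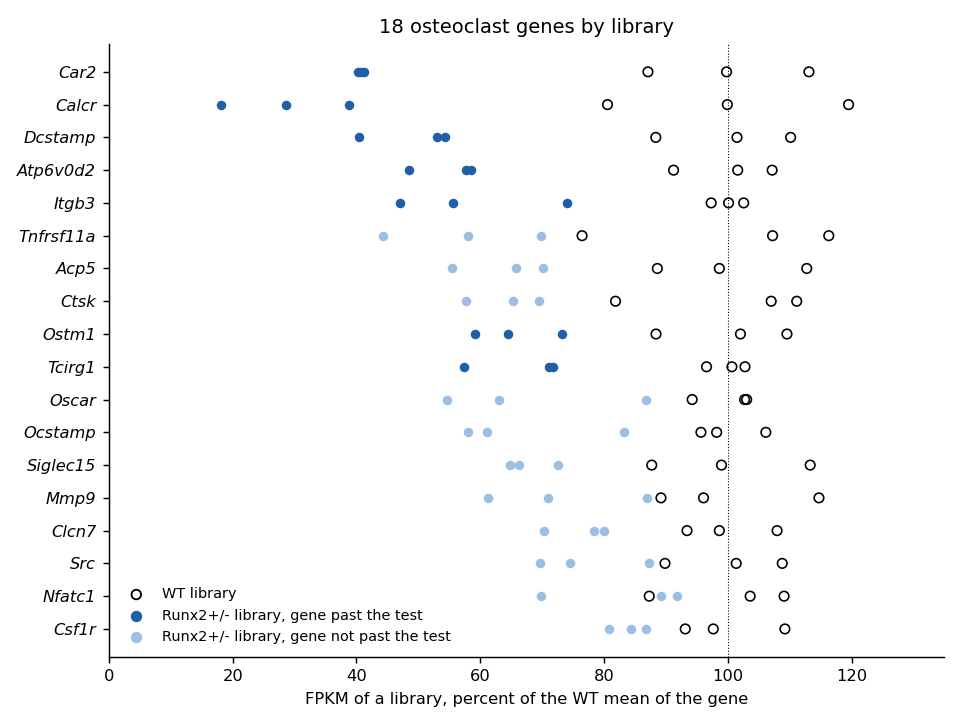
FPKM of 18 osteoclast genes in each library as a percentage of the WT mean of the gene, with open circles for WT and filled circles for Runx2+/- libraries, dark where the gene passed an adjusted p of 0.05. In 17 genes all Runx2+/- libraries lie to the left of all WT libraries; Nfatc1 overlaps, and Car2 lies at 40.7% of its WT mean.

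The subunits of the vacuolar proton pump, a list made after the values had been seen, were read beside the osteoclast genes. Of 20 tested genes, 5 were lower and 1 higher, beside 1.66% and 0.473% of all genes, 13 were below WT in all libraries, beside 10.3%, and the median was -0.44. The higher gene, Atp6v0c-ps2, and 1 of the lower genes, Atp6v0c, are near-identical copies that can share reads and are uncertain alone. Another lower gene, Atp6v0d2, is already counted in the osteoclast list. Chosen in this way, the list is not separate evidence beside the osteoclast genes. Leaving out a library gave 2 (without WT 1 or WT 3) to 9 (without WT 2) lower genes, and 3 without Runx2+/- 2 or 3. Atp6v1b2, Atp6v1c1 and Atp6v1a, subunits of the part that splits ATP, had log2 fold changes of -0.72, -0.76 and -0.64 (adjusted p = 0.0149, 0.0426 and 0.0404, limma), and without WT library 1 the adjusted p was 0.0636, 0.155 and 0.149. Atp6v0d1, the widely expressed counterpart of Atp6v0d2, had a log2 fold change of -0.08. Atp6v0a1 and Atp6v0a2, which other cells use in place of Tcirg1, had 0.23 and 0.22.

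Further lower genes with a known place in osteoclasts or their myeloid precursors were picked after their values had been seen. Spi1 (PU.1), the factor that commits progenitors to the myeloid lineage, had 54.7, 52.4 and 53.5 FPKM in the WT and 34.1, 31.9 and 36.04 FPKM in the Runx2+/- libraries (log2 fold change -0.64, adjusted p = 0.0132, limma, and 0.0531 without WT library 1). Ccl9, a chemokine that osteoclasts make, had 69.5, 59.2 and 56.3 against 13.9, 21.0 and 32.7 FPKM, and its receptor Ccr1 43.4, 39.2 and 48.6 against 21.7, 18.5 and 26.04 FPKM. The log2 fold changes were -1.49 and -0.96 (adjusted p = 0.0312 and 0.0159, limma), and 0.117 and 0.058 without WT library 1. Cd52, a glycoprotein of leukocytes, and Lcp1 (L-plastin), which bundles actin in blood cells, were called in all 6 fits that left out a library. Cd52 had 36.3, 35.7 and 36.1 against 19.7, 20.3 and 20.3 FPKM, and Lcp1 84.3, 74.7 and 75.6 against 45.3, 38.6 and 37.3 FPKM. Ckb, Slc9b2, Snx10 and Jdp2, all with a described role in osteoclasts, had log2 fold changes of -0.82, -0.84, -0.91 and -0.55, and none of the 4 passed without WT library 1 (adjusted p = 0.142, 0.155, 0.137 and 0.11, limma).

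Macrophage genes gave no call. Of 10 tested genes 0 passed and 2 had an unadjusted p under 0.05 (limma), the median log2 fold change was -0.07, and the summed FPKM was 637 to 699.9 in the WT and 511 to 682 in the Runx2+/- libraries. Csf1r, the receptor shared by macrophages and osteoclasts, had 72.3, 80.9 and 69.0 against 62.5, 59.9 and 64.3 FPKM (log2 fold change -0.25, adjusted p = 0.23, limma). Lyz2 overlapped, with 241, 184 and 201 against 132, 196 and 225 FPKM. Granulocyte genes spread widely among the Runx2+/- libraries. The median over 12 neutrophil genes was -1.29 with 0 calls and 7 at an unadjusted p under 0.05, and S100a8 had 179.7, 267 and 265 FPKM in the WT and 64.0, 221 and 50.7 FPKM in the Runx2+/- libraries. Runx2+/- library 2 lay near WT, as it did in the erythroid genes, where the median over 9 genes was -1.05. Tfrc, the transferrin receptor, was the 1 erythroid list gene called lower, with 52.4, 40.8 and 43.5 against 29.0, 27.8 and 24.5 FPKM (log2 fold change -0.73, adjusted p = 0.0245, limma, and 0.0714 without WT library 1). It was low in all 3 Runx2+/- libraries, and this 1 call of 9 genes stands beside 1.66% of all genes. Without Runx2+/- library 2, 5 erythroid genes were lower and the median was -1.55, without Runx2+/- library 3 none was lower and the median was -0.65, and the count was also 0 without WT 1 or WT 3. The neutrophil median was -1.90 with 3 lower genes without Runx2+/- library 2.

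Other cell types were covered by further lists, whose calls stand beside 1.66% lower and 0.473% higher over all genes. Among 12 endothelial genes, Pecam1 (CD31) was lower, with 21.4, 20.9 and 21.2 FPKM in the WT and 13.8, 14.6 and 13.3 FPKM in the Runx2+/- libraries (log2 fold change -0.57, adjusted p = 0.0149, limma, and 0.07 without WT library 1), and the median was -0.23. The 6 tested adipocyte genes had 0 calls and a median of -0.89, with Fabp4 at 455, 302 and 417 against 179, 238 and 237 FPKM. The lists of mast cells (5 tested genes), B cells (3), neurons (6), Schwann cells (8) and keratinocytes (2) gave 0 calls, and their medians were 0.20, -0.39, -0.02, 0.11 and 0.36. Of 9 smooth muscle and pericyte genes, Des was lower, a gene that skeletal muscle shares, while Acta2 and Tagln had 110.3, 157 and 99.6 and 117, 186 and 141 FPKM in the Runx2+/- libraries against at most 94.4 and 104 FPKM in WT without passing. Of 16 cell cycle genes 15 had a log2 fold change below 0, with a median of -0.26, 0 calls and 7 at an unadjusted p under 0.05. Immediate early genes, which respond to handling, had a median of 0.01 over 15 genes, and interferon response genes one of -0.06 over 11 genes, with 0 calls in both.

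Skeletal muscle genes showed the largest differences. Of 28 tested sarcomere genes, 26 were lower, and in all 28 the Runx2+/- libraries lay below the WT libraries, with a median log2 fold change of -2.80. Of 18 tested genes of calcium handling and energy in muscle, 17 were lower, all 18 lay below WT, and the median was -2.85. Over all genes 1.66% were lower and 10.3% lay below WT. Without WT library 1, 20 sarcomere and 9 calcium and energy genes were lower, and the latter count was 10 without Runx2+/- 2 or 3 and 9 to 16 over all libraries left out in turn. In a fit of all 12 libraries, where the spread of muscle RNA in the second cross enters, 0 sarcomere and 2 calcium and energy genes passed (limma). Tnnc2, the calcium sensor of fast fibres, had 315, 305 and 1005 FPKM in the WT and 28.8, 28.9 and 1.30 FPKM in the Runx2+/- libraries (log2 fold change -5.18, adjusted p = 0.037, limma). Ckm, the muscle creatine kinase, had 107, 109 and 322 against 8.21, 6.61 and 1.00 FPKM (log2 fold change -4.91, adjusted p = 0.0132, limma). WT library 3 was highest and Runx2+/- library 3 lowest in both genes. Acta1, Myl1 and Cox6a2, the skeletal actin, a myosin light chain and a respiratory subunit of muscle, had log2 fold changes of -4.88, -5.08 and -4.90. Myl1 did not pass without WT library 1 (adjusted p = 0.0682, limma) and Acta1 not without WT library 3 (0.0562). The call of Ckm was held in all 6 fits that left out a library, whereas that of Tnnc2 was lost without WT 1, 2 or 3. Its adjusted p was 0.0997 without WT 1 and 0.124 without WT 3 (limma).

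Stem cell and neuromuscular genes of muscle could be compared for few members. Of 14 myogenic regulators and receptors, 5 were tested and 1 was lower, beside 1.66% of all genes. Myf6, a regulator of differentiated fibres, was lower, with 2.48, 1.62 and 6.88 FPKM in the WT and 0, 0.117 and 0 FPKM in the Runx2+/- libraries (log2 fold change -2.003, adjusted p = 0.0341, limma, and 0.0905 without WT library 1). It passed the filter of 1 FPKM through the WT libraries alone and was not called when the filter was dropped. Pax7 and Myod1, which mark satellite cells and myoblasts, were below the filter in both groups. Myog had 3.76, 1.81 and 6.99 against 1.30, 0.281 and 0.315 FPKM without passing (adjusted p = 0.0789, limma). Cdh15, an adhesion molecule of muscle precursors, overlapped at 5.56, 6.46 and 5.61 against 6.11, 4.14 and 3.76 FPKM. The amount of muscle RNA also differed strongly between mice of 1 genotype. In the second cross the summed FPKM of the 35 sarcomere genes ranged from 43.0 to 1616 in the control and from 723 to 4849 in the Med23-/- libraries. Dissection of the calvaria is not described in a way that gives the muscle left on it, and genotype and dissection cannot be told apart here.

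The leading lower genes outside muscle and bone were mixed in kind. Snora78, a small nucleolar RNA, had 4.39, 5.47 and 6.24 FPKM in the WT libraries and was listed at 0 in all Runx2+/- libraries. In the second cross its mean was 0 FPKM in the control and 2.09 FPKM in the Med23-/- libraries. Its neighbour Snora64 went the other way without a call (log2 fold change 2.87). H4c12, a histone gene, had 10.8, 2.94 and 2.98 FPKM in the WT and was likewise listed at 0 in the Runx2+/- libraries, a call that was lost without Runx2+/- 1 (adjusted p = 0.0571, limma) or Runx2+/- 3. H2ac19, another histone gene, had 4.76, 3.69 and 6.03 against 0.988, 0.0422 and 0.382 FPKM (log2 fold change -2.02, adjusted p = 0.0132, limma), held without each library. The U1 genes Rnu1b1 and Rnu1b2 had equal values, since their sequences are copies, and WT library 2 stood above the others at 23.1 FPKM. Each was at most 0.252 FPKM in the second cross. There H4c12 had means of 3.33e-06 FPKM in the control and 0.0371 FPKM in the Med23-/- libraries, so the WT values of these genes were not seen in other normal calvaria. Mt3, a metallothionein, had 439, 287 and 467 against 204, 156 and 109.9 FPKM (log2 fold change -1.35, adjusted p = 0.037, limma, and 0.141 without WT library 1). Rln1 (relaxin) had 2.02, 2.03 and 2.45 against 0.255, 0 and 0.309 FPKM (log2 fold change -1.42, adjusted p = 0.0117, limma), held without each library. Snora78, H4c12, H2ac19, Rnu1b1, Rnu1b2 and Rln1 were below 1 FPKM in every Runx2+/- library, so they passed the filter through WT alone. With no filter on low values, Snora78 and Rln1 were still called and the others were not. Mlf1 and Chchd10 followed the muscle genes over the second cross with r of 0.756 and 0.726, just under the limit of 0.8 for a muscle-associated gene, with 21.8, 17.1 and 50.4 against 4.92, 5.15 and 4.63 FPKM for Mlf1.

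Among the leading higher genes outside cartilage and the WNT inhibitors, Tac1, the precursor of substance P, had 4.62, 2.602 and 7.61 FPKM in the WT and 20.3, 21.9 and 17.5 FPKM in the Runx2+/- libraries (log2 fold change 1.90, adjusted p = 0.0164, limma, and 0.0586 without WT library 1). Igfbp2, a carrier of insulin-like growth factors, had 88.3, 93.4 and 139.7 against 195, 189 and 229 FPKM (log2 fold change 0.95, adjusted p = 0.0366, limma, and 0.129 without WT library 1). Aldh1a1, an enzyme of retinoic acid synthesis, had 2.28, 3.10 and 3.40 against 5.30, 6.56 and 10.01 FPKM, and Ch25h, which hydroxylates cholesterol, 1.82, 1.40 and 1.79 against 5.36, 2.91 and 5.21 FPKM. Both calls were lost without WT library 1 (adjusted p = 0.164 and 0.129, limma). Prmt8, an arginine methyltransferase known from brain, Slc52a3, a riboflavin transporter, and Chodl, a membrane lectin, had log2 fold changes of 0.89, 0.86 and 1.03 and were called without each of the 6 libraries. Zic1 and Zic2, zinc finger factors of the head mesoderm and neural tissue, and Foxp1 were named after their values had been seen. They had log2 fold changes of 0.52, 0.50 and 0.48, and their adjusted p without WT library 1 was 0.164, 0.159 and 0.127.

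Several of the largest values belonged to pairs of near-identical genes, between which reads can be assigned either way, so that each gene alone is uncertain. Atp6v0c, the ring subunit of the proton pump, had 708, 573 and 627 FPKM in the WT and 222, 174 and 201 FPKM in the Runx2+/- libraries. Its transcribed pseudogene Atp6v0c-ps2 on chromosome 6 had 16.9, 15.6 and 30.4 against 271, 239.8 and 271 FPKM (log2 fold change 3.63, adjusted p = 0.000945, limma). The sum of both was 725, 589 and 658 FPKM in the WT and 494, 414 and 472 FPKM in the Runx2+/- libraries, a difference of -0.51 on the log2 scale in place of -1.67 for Atp6v0c alone. Hmga1 and its copy Hmga1b on chromosome 11 were divided in the same manner, with Hmga1 lower (log2 fold change -0.88) and Hmga1b higher (2.07). Neither passed without WT library 1 (adjusted p = 0.0925 and 0.0711, limma), and the sum was 31.5, 33.0 and 24.2 against 18.3, 17.3 and 24.6 FPKM. Tpsab1, a mast cell tryptase gene, had 1.15, 0.715 and 0.262 against 13.3, 23.3 and 14.2 FPKM (log2 fold change 3.38, adjusted p = 0.00222, limma). Of its WT libraries only library 1 reached 1 FPKM, so it passed the filter through the Runx2+/- libraries. It was also called with no filter. The rise came from its transcript NM_031187, which was listed at 0 in all WT libraries and had 12.1, 21.5 and 14.0 FPKM in the Runx2+/- libraries. In the second cross it was at most 0.107 FPKM in any library. Whether shared reads had a part in this was not tested. The RefSeq table of the C57BL/6J genome lists Tpsab1 as a transcribed pseudogene. Its neighbour Tpsb2, another tryptase, overlapped at 32.5, 29.7 and 37.7 against 32.6, 57.2 and 39.3 FPKM. The sum of Tpsab1 and Tpsb2 was 33.6, 30.4 and 38.0 against 45.9, 80.5 and 53.5 FPKM, a difference of 0.77 on the log2 scale. The mast cell genes Cma1, Cpa3 and Kit were not called.

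Atp6v0c, Hmga1 and Tpsab1 lie on chromosome 17, 16.9 to 20.3 Mb from Runx2. The genes around Runx2 were therefore counted, a count made after their values had been seen. Outside skeletal muscle, 10 of 456 tested genes within 25 Mb of Runx2 were called (2.19%), 1 of 152 on the rest of chromosome 17 (0.658%) and 178 of 11810 on other chromosomes (1.51%). Chromosome 6 had the highest share of all, with 19 of 611 genes (3.11%). Of the 10 genes 8 were lower and 2 higher. They include Atp6v0c, Hmga1 and Tpsab1, which prompted the count, so the share within 25 Mb is not read as a result. Snora78, Ip6k3, Cyp4f17 and Psmb9 were also among them. The nearest were Enpp5, Slc29a1 and Mad2l1bp, within 1.65 Mb of Runx2, with log2 fold changes of -0.56, -0.42 and -0.65, and none was called without WT library 1 (adjusted p = 0.135, 0.184 and 0.117, limma). Genes of the MHC, between those and Hmga1, gave 1 lower gene of 18, Psmb9, an immunoproteasome subunit, with 10.2, 11.5 and 10.1 FPKM in the WT and 5.72, 6.62 and 5.93 FPKM in the Runx2+/- libraries (log2 fold change -0.71, adjusted p = 0.0149, limma, and 0.0531 without WT library 1). The 1 call of 18 stands beside 1.66% of all genes. In 7 of the 18 the Runx2+/- libraries lay below the WT libraries, beside 10.3% of all genes, and the median was -0.25. The count of lower genes of this list was 0 without WT 1 and 3 without Runx2+/- 2.

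**Figure D5:**
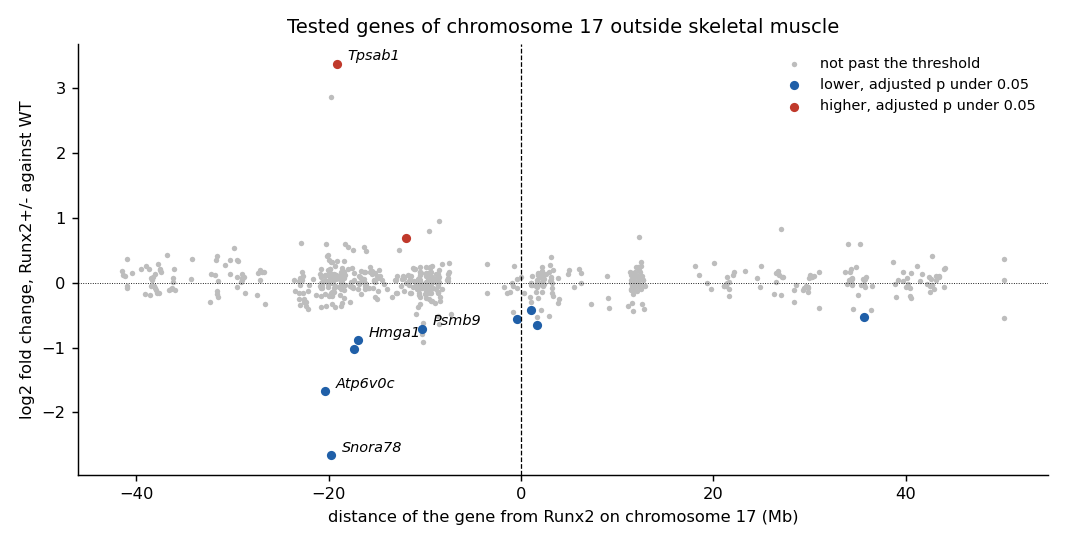
Log2 fold change, Runx2+/- against WT, of each tested gene of chromosome 17 outside skeletal muscle by its distance from the start of Runx2 in Mb; blue and red points passed an adjusted p of 0.05. Of the 11 called genes, 10 lie within 25 Mb of Runx2, where 456 tested genes lie, beside 152 on the rest of the chromosome. Among called genes Tpsab1 (3.38), Snora78 (-2.66) and Atp6v0c (-1.67) stand farthest from 0. Snora64, which was not called, lies at 2.87.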

How the data were processed

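The tissue was parietal bone at postnatal day 2 according to the methods and newborn calvaria per the labels, RNA was extracted with Trizol, and libraries were made from 1 ug of total RNA with the Illumina TruSeq kit. The authors deposited FPKM values for 30411 RefSeq transcripts in each of 12 files. Bowtie 0.12.8 and the build mm10 are named in the submitters' processing notes, and the program that estimated FPKM is not given in the sources used here. Groups were taken from the labels.

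Transcripts were joined to gene symbols with the NCBI table of GRCm38.p6 (29835 matched) and GENCODE (180 matched), and 396 kept their own identifier. FPKM were summed per gene, genes of at least 1 FPKM in 3 of 6 libraries were kept, and log2(FPKM + 1) was tested with limma 3.58.1 with a mean-variance trend in R 4.3.3, 3 WT against 3 Runx2+/- libraries, with Benjamini-Hochberg adjustment over 12682 genes at a threshold of 0.05. The method was tested on simulated data. P-values measure the spread between these libraries, which is taken to be that between mice. Since the deposited values are no counts, no count model was used. Depth was estimated from the smallest steps of FPKM times length over transcripts of at least 2000 bases and is rough. Tables were made with Python 3.11.15, pandas 2.3.3, numpy 2.4.6 and matplotlib 3.10.9.

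A gene was called muscle-associated if it was in one of 3 skeletal muscle lists (70 genes) or if, over the 6 libraries of the second cross, its centred log2(FPKM + 1) followed the mean of 46 muscle genes with r above 0.8 and a slope above 0.3, which 135 tested genes met. The genes that could be named were fixed by rule, and not all of them are printed: Runx2, Sp7, Alpl, Col1a1, Bglap, Ibsp and Atf4, the 12 largest log2 fold changes per direction among called, non-overlapping genes outside muscle, the 5 muscle-associated genes that fell most, and up to 4 genes of the smallest p in each of 28 lists. Predicted genes, RIKEN clones and transcripts without a symbol were counted, not named (5 lower and 7 higher among all called genes). Other named genes are further list members, or copies, proton pump, myeloid and chromosome 17 genes, chosen after their values were seen. The members and lists were chosen with earlier results of these data known. The difference between the genotype effects of both crosses was fitted over all 12 libraries.

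Alternatives were a pseudocount of 0.1, no filter, a single fit of all 12 libraries, a block for the replicate number, rescaling outside muscle genes, no trend, leaving out each library, and quantile normalization, the last added after the data were seen.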

Additional observations from a re-analysis of the deposited data

Results flagged for a closer look

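For 8 of the genes named by the rule, the genotype effect in the Runx2 cross differed from that of the Med23 cross by a test of the difference itself (limma interaction contrast over 12 libraries). Most named genes were chosen by their values in the Runx2 cross. The same libraries enter this contrast, so the differences can be overstated by that choice. Over all 12682 genes, 22 differences passed an adjusted p of 0.05 and 1937 had an unadjusted p under 0.05. Without Runx2+/- library 1 only 2 differences passed, and which genes these were is not given here. All differences are on the log2 scale, Runx2 cross minus Med23 cross. In the Med23 cross, control libraries 2 and 3 came from females, with 49.1 and 37.8 FPKM of Xist. Control library 1 had 0.0187 FPKM of Xist, and the Med23-/- libraries had 0.0578, 0.0473 and 0.0208 FPKM. Sex thus differed between the groups in both crosses, and whether it had a part in these differences was not tested. In Car2, the osteoclast carbonic anhydrase, the difference was -1.35 (adjusted p = 0.0389), from -1.24 in the Runx2 cross and 0.11 in the Med23 cross. In the cartilage gene Epyc it was 1.57 (adjusted p = 0.0212), from 1.62 and 0.05. In Prmt8 it was 0.92 (adjusted p = 0.0352), from 0.89 and -0.03. The pseudogene Atp6v0c-ps2 gave 3.44 (adjusted p = 0.00465), from 3.63 and 0.20, and Tpsab1 gave 3.22 (adjusted p = 0.0071), from 3.38 and 0.17. Both of these can share reads with near copies and are uncertain. Among genes of muscle, the difference was -4.95 for Actn2 (adjusted p = 0.0446), from -2.82 and 2.13, and -4.36 for Pvalb (adjusted p = 0.0335), from -3.01 and 1.34. Mlf1, just outside the limit for a muscle-associated gene, gave -3.49 (adjusted p = 0.0481), from -2.23 and 1.26.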

How the results depend on the processing

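The counts of lower and higher genes stayed within 1.5 times of 210 and 60 with a pseudocount of 0.1, with rescaling outside muscle genes, without the mean-variance trend and with quantile normalization, and the direction of the counts was the same in these. When low genes were kept, the genes tested rose to 18425. The calls then dropped to 7 lower and 7 higher, none of them muscle-associated, and 12 of these 14 were among the 270 calls. Car2, Cd52, Epyc, Prmt8, Rln1, Sfrp2 and Snora78 were among the 14. Mmp13, Sfrp4, Atp6v0d2, Lcp1, H2ac19, Slc52a3 and Chodl were not, although their calls held when any 1 library was left out. With all 12 libraries in 1 fit, 55 were lower and 39 higher, of which 51 and 39 outside skeletal muscle. Same-numbered WT and Runx2+/- libraries did not deviate together (r of -0.00495, -0.068 and -0.0962). With 3 libraries per group this cannot exclude that the numbers pair littermates. With the replicate block, 114 genes were lower and 32 higher, of which 59 and 32 outside skeletal muscle, and 129 of the 146 calls were shared. With 1 library left out, 76 (without WT 1) to 159 (without WT 2) genes were lower and 15 to 43 higher, and outside skeletal muscle 26 to 96 and 15 to 43. For these counts the cause was not tested, beyond the number of genes tested and of libraries. The 22 genes that differed between the crosses became 138 with the replicate block and 2 to 78 with 1 library left out. Genes not called whose direction turned when 1 library was left out had these ranges of the log2 fold change: Runx2 -0.0032 to 0.22, Sp7 -0.065 to 0.21, Col1a1 -0.041 to 0.45, Atf4 -0.030 to 0.11, Lyz2 -0.36 to 0.018, Cpa3 -0.017 to 0.48, Cma1 -0.19 to 0.42, Kit -0.10 to 0.020, Uchl1 -0.042 to 0.11, Krtdap -0.038 to 0.80, Rsad2 -0.52 to 0.041 and Eif2s3y -0.020 to 2.90. With 7860000 to 11510000 fragments, genes near 1 FPKM rest on few fragments, although some of them, such as Rln1, were called, and counts of fragments per gene are not known.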
